A study of Mus musculus with 40 samples.

Results

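The inner nuclear membrane is lined by the lamins, intermediate filament proteins encoded by *Lmna*, *Lmnb1* and *Lmnb2*, and carries the lamin B receptor LBR, a transmembrane protein that binds heterochromatin and whose membrane domain is a sterol C14-reductase. Both hold silent chromatin at the nuclear periphery, so a gene may respond to the loss of either, or only to the loss of both. The data described here are the 20 epiblast-like cell (EpiLC) libraries, of 40 RNA-seq libraries in all, from mouse embryonic stem (mES) cells that lacked LBR, the lamins, or both. EpiLCs model the formative epiblast that follows naive pluripotency. Total RNA was taken 48 h after naive mES cells were moved to 20 ng/mL FGF and 12 ng/mL Activin A. The groups were wild type (WT, n = 8), LBR knockout made in WT cells (LBR KO, n = 4), triple knockout of the 3 lamin genes (TKO, n = 4) and quadruple knockout made by targeting *Lbr* in TKO cells (QKO, n = 4). All groups descend from XY lines, and WT and TKO are littermate lines. WT cells were karyotyped as a mixture in which some cells had lost the Y chromosome, with or without trisomy of chromosomes 6 and 8, and TKO cells as trisomic for chromosome 8, some of them without the Y chromosome. LBR KO was not described in that respect, and QKO was karyotyped but its karyotype is not given.

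The QKO is a single clone, in which 1 of the *Lbr* alleles carries an in-frame deletion and the other a frameshift, several LBR KO clones exist and the labels do not say which one a library came from, and each library was made from 1 well. The clone and the genotype cannot be told apart for QKO, and p-values measure the spread between libraries, which may be technical. The authors found EpiLC survival moderately lower in LBR KO and TKO and severely impaired in QKO, so the libraries come from surviving cells. The part of cell survival in the values was not tested. Libraries held 22.6 to 48.9 M counts assigned to genes. WT replicates 1 to 4 (25.4 to 33.5 M) were close in depth to TKO and QKO (22.6 to 33.2 M), and WT replicates 5 to 8 (44.4 to 48.9 M) to LBR KO (40.8 to 48.1 M), so each result was also computed with either WT set alone. The EpiLC label was checked against stage markers. *Fgf5* was at 80 to 185 CPM (counts scaled to the library total) and *Dnmt3b* at 1640 to 3310 CPM in every EpiLC library. *Dnmt3b* was lowest in QKO (1640 to 1730 CPM, WT 2720 to 3310) and *Fgf5* highest (177 to 185 CPM, WT 132 to 157). *Pou5f1* was at 270 to 314 CPM in QKO and 388 to 617 CPM in WT. Among naive markers, *Esrrb* ranged from 13.9 to 19.3 CPM in WT EpiLCs, from 65.3 to 95.3 CPM in LBR KO and from 38.7 to 50 CPM in QKO. *Zfp42* was at 52.2 to 57.7 CPM in QKO (WT 19.3 to 26.1), whereas *Klf4* in QKO (6.19 to 7.04 CPM) lay inside the WT range (4.16 to 15.6).

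For every gene, the log2 ratios to WT of LBR KO and TKO were added, and the interaction was the log2 ratio of QKO to WT minus that sum. It is 0 when the effects of losing LBR and losing the lamins add up on the log2 scale. A difference was called at an adjusted p under 0.05 and a change over 2-fold in edgeR's quasi-likelihood test. Called interactions were sorted by 4 classes. Synergy means that QKO was called in the direction of the interaction and no called single effect opposed it. Buffering means that at least 1 single knockout was called and QKO deviated from the sum in the opposite direction. Opposed single effects means that LBR KO and TKO were called in opposite directions. The remaining calls were left unsorted. The classes were sorted by the same values that were tested, so their counts and medians are a description.

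The targeted genes were read first. *Lmnb1* fell from 499 to 547 CPM in WT (median 509) to between 0.535 and 1.17 CPM in TKO and between 1.64 and 2.09 CPM in QKO. Its interaction was called higher (1.06, buffering class) and rests on these residual counts. Without TKO replicate 3 it was 0.91. *Lmnb2* fell from 89.8 to 102 CPM in WT (median 95.4) to between 1.02 and 3.37 CPM in TKO and QKO. *Lmna* was low in every group, at 9.28 to 13 CPM in WT (median 11.3) and 6.95 to 9.43 CPM in TKO and QKO. In LBR KO it was at 13.5 CPM in replicate 3 and 18.4 to 19.2 CPM in the other libraries. The range of TKO and QKO overlaps that of WT, so *Lmna* RNA does not check its knockout. Small deletions in *Lbr* need not remove its RNA. The gene read 364 to 513 CPM in WT (median 421), 196 to 403 CPM in LBR KO, 335 to 383 CPM in TKO and 252 to 291 CPM in QKO, so its RNA does not check the LBR KO label and its interaction was 0.08 ± 0.20 (log2 ± SE, adjusted p = 0.823).

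Loss of both was far larger than the loss of either. Of 23399 genes tested, 3048 were higher and 1909 lower in QKO than in WT (13% and 8.16%), against 712 higher and 615 lower in LBR KO (3.04% and 2.63%) and 336 higher and 346 lower in TKO (1.44% and 1.48%). The interaction was called higher for 1191 genes (5.09%) and lower for 692 genes (2.96%). Of the 4957 genes called in QKO, 1121 (22.6%) had an interaction in the same direction and 57 in the opposite direction, and 2829 had neither a call in a single knockout nor an interaction call. Only 165 genes were called in both single knockouts, 123 in the same direction and 42 in opposite directions. The median interaction over all genes was -0.003.

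Synergy was the largest class, with 664 genes higher and 404 lower. Of these 1068 genes, 984 were called in neither single knockout. Buffering held 217 genes with a higher and 102 with a lower interaction, opposed single effects 10 and 5, and 300 and 181 genes stayed unsorted. In 355 of the 481 unsorted genes, both single estimates pointed away from the interaction without passing the threshold. Synergy genes with a higher interaction were scarce transcripts in WT, with a median of 0.56 CPM that reached 2.18 CPM in QKO, and 50.5% of them were protein coding. Those with a lower interaction were 95% protein coding and went from a median of 4.85 to 1.52 CPM. The rise or fall from WT to QKO is set by the class rule, and genes expressed in QKO alone could pass the filter. The threshold falls in a continuous range: *Hip1r* at -1.0006 and *Sema5b* at -1.0009 lay just inside, *Mrc2* at -0.9993 and *Gm43420* at 0.9995 just outside.

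**Figure D1:**
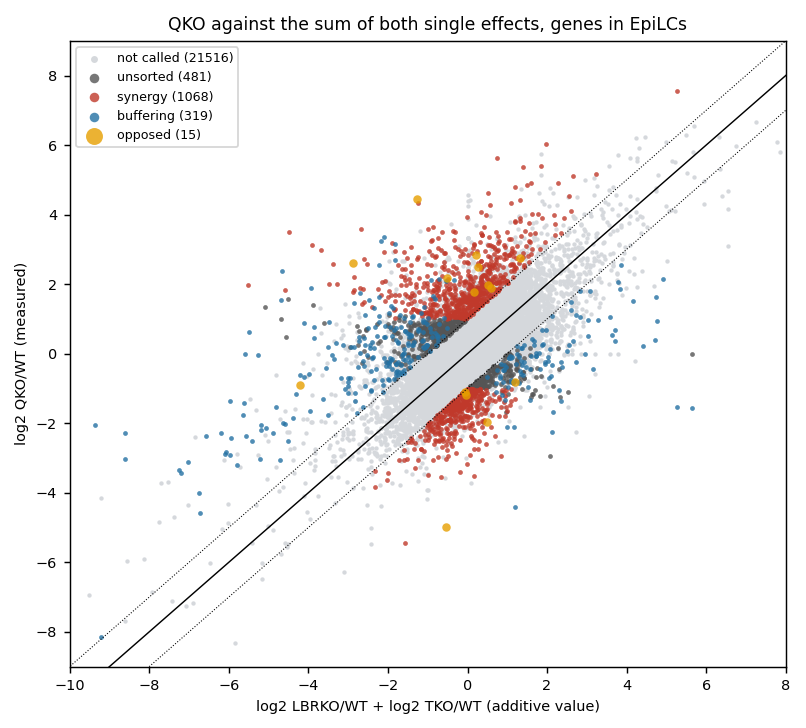
Each point is a gene, with the sum of the log2 ratios of LBR KO and TKO to WT on the x axis and the log2 ratio of QKO to WT on the y axis. The solid line marks additivity and the dotted lines a 2-fold departure from it. The 1068 synergy genes lie above or below the line near a sum of 0, and the 319 buffering genes lie at larger sums. QKO was not called against WT for 142 of the 217 buffering genes above the line and for 80 of the 102 below it.

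Genes of the synergy class that fell in QKO included enzymes, receptors and a chromatin protein. *Alg13*, which encodes a subunit of the transferase that adds the second sugar of the N-glycan precursor, was at 154 to 206 CPM in WT (median 181), 167, 190, 180 and 169 CPM in LBR KO and 130, 165, 153 and 162 CPM in TKO, and at 25, 25.4, 23.4 and 26.2 CPM in QKO. The single knockouts overlapped WT, whereas no QKO library reached them, and the interaction was -2.57 ± 0.11 (adjusted p = 6.66e-21). *Macroh2a2*, a macroH2A histone variant found in repressed chromatin, was at 23.8 to 35.8 CPM in WT (median 26.9), 35.2 to 37.6 CPM in LBR KO, 31.8 to 35.4 CPM in TKO and 7.64 to 8.75 CPM in QKO (interaction -2.38 ± 0.12, adjusted p = 1.48e-18). *Epha7*, an ephrin receptor, was at 9.92 to 20.5 CPM in WT (median 13.3) and at 3.06, 2.21, 2.78 and 3.56 CPM in QKO, with LBR KO and TKO inside the range of WT. *Ap3b2*, a neuronal subunit of the AP-3 vesicle coat (interaction -2.82 ± 0.22), *Mmd* (-2.65 ± 0.24) and the zinc finger gene *Zfp618* (-2.55 ± 0.32) completed the 6 largest changes by the naming rule.

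The 6 synergy genes with the largest higher interactions by the naming rule were at no more than 6.24 CPM in WT. *Rcsd1*, which encodes an actin-capping-protein regulator, was at 0.468 to 1.15 CPM in WT (median 0.675), 0.522 to 1.15 CPM in LBR KO and 0.249 to 0.927 CPM in TKO, and at 7.38, 9.05, 8.94 and 9.02 CPM in QKO (interaction 3.82 ± 0.51, adjusted p = 1.85e-07). *Cnga3*, a cyclic-nucleotide-gated channel of cone photoreceptors, was at 1.13 to 2.1 CPM in WT (median 1.76) and 7 to 9.95 CPM in QKO. For *Cd109*, a GPI-anchored surface protein, the estimates of both single knockouts pointed down without passing the threshold (log2 ratios -0.492 and -0.999), while QKO was at 12.2, 14.5, 17.7 and 15.1 CPM against 4.85 to 6.24 CPM in WT (median 5.47). The other members named by the rule were *Ccdc187*, the noncoding RNA *Slfnlnc* and the Y-linked demethylase gene *Kdm5d*. *Slfnlnc* was called in LBR KO (log2 ratio 1.71), and read 9.34 to 11.4 CPM in QKO against 0.18 to 0.613 CPM in WT (median 0.337).

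*Gata6*, a transcription factor of primitive endoderm, belonged to the same class. It was at 0.247 to 0.547 CPM in WT (median 0.353), 0.636, 0.409, 0.502 and 0.554 CPM in LBR KO, 0.485, 0.675, 0.421 and 0.666 CPM in TKO and 3.1, 3.1, 3.47 and 1.93 CPM in QKO. Every QKO library stood above all others, and the interaction was 1.84 ± 0.46 (adjusted p = 0.00224). Among 19 tested primitive endoderm genes, the interaction was called higher for 3 (*Gata6*, the receptor gene *Pdgfra* and the laminin gene *Lama1*) and lower for 5 (*Sox7*, *Dab2*, *Amn*, *Col4a1* and *Col4a2*), against 5.09% and 2.96% of all genes. The summed level of the list was 1190 to 1290 CPM in QKO and 1240 to 1570 CPM in WT. Without TKO replicate 1, the number of lower calls was 3.

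Mesendoderm genes had 4 higher calls of 16 tested, against 5.09% of all genes. *Eomes*, a T-box factor of the primitive streak, was at 6.87 to 9.5 CPM in WT (median 7.78), 6.02 to 7.53 CPM in LBR KO, 6.84 to 9.57 CPM in TKO and 20.4, 22.6, 20.8 and 21.8 CPM in QKO (interaction 1.69 ± 0.15, adjusted p = 2.9e-11). *Lhx1* was also of the synergy class, while *Tal1* and *Kdr*, genes of blood and vessel progenitors, were buffered. Germline genes had 7 higher calls of 14 tested, against the same 5.09%, among them *Sycp1*, a synaptonemal complex protein, *Hormad1*, which acts on the meiotic chromosome axis, *Smc1b*, a meiotic cohesin, and *Dazl*, an RNA-binding protein of germ cells. *Dazl* lay near the threshold, at 1.01 with all libraries and 0.87 with WT replicates 1 to 4. One germline gene, *Rhox5*, was lower. The imprinted gene *Peg3* was at 142 to 165 CPM in WT (median 153) and at 420 CPM or more in each QKO library (interaction 1.35 ± 0.09). Of 30 imprinted genes, 2 were called higher, near the share of all genes (5.09%), and 3 lower (2.96% of all genes).

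Among YAP target and cytoskeleton genes, 4 of actin contractility had a lower interaction. *Acta2*, smooth muscle actin, was at 1.17 to 3.52 CPM in WT (median 2.09), 1.95, 2.07, 2.61 and 3.51 CPM in LBR KO, 0.574, 0.639, 0.727 and 0.636 CPM in TKO and 0.072, 0, 0.0327 and 0.0841 CPM in QKO. The lamin loss alone lowered it and QKO lay lower still, with an interaction of -3.86 ± 0.81 (adjusted p = 0.000307). Its size rests on no more than a few reads in each QKO library. *Myl9*, a myosin light chain, was at 14.2 to 33.1 CPM in WT (median 23.6) and 3.45 to 5.08 CPM in QKO, and the calponins *Cnn1* and *Cnn2* had interactions of -1.18 ± 0.28 and -1.22 ± 0.20. *Vim*, the intermediate filament vimentin, moved the other way, from 77.2 to 106 CPM in WT (median 86.2) to 202 to 235 CPM in QKO. Of 19 tested YAP target and cytoskeleton genes, 4 were called lower and 2 higher, against 2.96% and 5.09% of all genes. The 2 higher ones were *Vim* and the YAP target *Ccn1* (interaction 1.15), and the median interaction of the list was -0.16.

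*Wnt5a*, a ligand of noncanonical WNT signalling, had an interaction of 4.78 ± 0.57 (adjusted p = 2.16e-08). It read 0.291 to 0.764 CPM in WT (median 0.48), 0.363, 0.0766, 0.334 and 0.192 CPM in LBR KO, 0.265, 0.107, 0.115 and 0.363 CPM in TKO and 2.77, 3.07, 3.57 and 2.38 CPM in QKO. Both single knockouts were called lower (log2 ratios -1.03 and -1.21) and QKO higher (2.54), so the gene falls in the buffering class by rule although QKO exceeded WT. The additive value was 0.105 CPM, or 3.26 reads in a QKO library, so the size of the interaction rests on very few reads in the single knockouts. Among 16 tested WNT ligand genes, *Wnt8a*, *Wnt8b* and *Wnt10a* also had higher calls, and *Wnt5b* a lower one (3.28 to 4.31 CPM in WT (median 3.75) and 0.813 to 1.77 CPM in QKO), against 5.09% and 2.96% of all genes. The list's median interaction was -0.01, and the number of higher calls was 2 without TKO replicate 3.

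**Figure D2:**
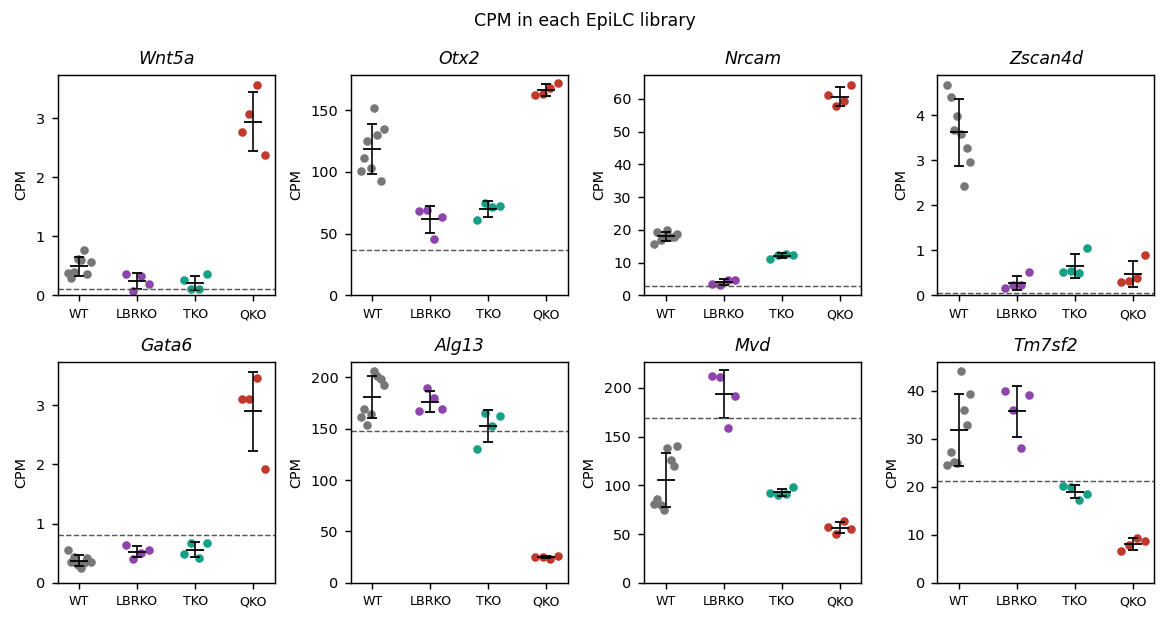
CPM of 8 genes in each EpiLC library, with points for libraries, bars for the mean ± SD of each group and a dashed line at the value that additive effects would give in QKO. For *Otx2*, *Nrcam* and *Wnt5a* both single knockouts sit below the WT mean and all 4 QKO libraries above every WT library, whereas for *Alg13*, *Mvd* and *Tm7sf2* all QKO libraries sit below the dashed line.

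Among buffering genes, some crossed WT in QKO as *Wnt5a* did. Of the 217 genes with a higher interaction, QKO was called above WT for 32, not called for 142 and called below WT for 43. *Nrcam*, a neuronal cell adhesion molecule, was at 15.8 to 19.9 CPM in WT (median 17.8), 3.63, 3.12, 4.81 and 4.83 CPM in LBR KO, 11, 12.4, 12.6 and 12.5 CPM in TKO and 61.2, 57.8, 59.5 and 64.4 CPM in QKO. The groups did not overlap, and the additive value was 2.77 CPM (interaction 4.46 ± 0.26, adjusted p = 1.29e-16). *Srrm4*, a splicing regulator of neuronal microexons, was at 3.17 to 5.75 CPM in WT (median 4.62), 1.72 to 2.15 CPM in LBR KO and 10.4 to 13 CPM in QKO. *Ebf3*, a neurogenic transcription factor, was at 0.855 to 1.25 CPM in WT (median 0.967) and 5.91 to 7.83 CPM in QKO (interaction 4.50 ± 0.51). *Trp53i11* was at 21.3 to 23.4 CPM in LBR KO and 20.3 to 25.2 CPM in TKO, against 35.2 to 54.8 CPM in WT (median 42.8) and 91.1 to 105 CPM in QKO. *Btbd17* (interaction 3.25 ± 0.39) and *Abca9* (3.13 ± 0.30) were also above WT in every QKO library. The neural list as a whole was mixed, with *Nrcam* and *Nes* higher and *Sox1* and *Gbx2* lower of 14 tested, against 5.09% and 2.96% of all genes.

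*Otx2*, a transcription factor that drives the exit from naive pluripotency, had the same shape and remained unsorted because neither single effect passed 2-fold. It was at 92.6 to 152 CPM in WT (median 118), 68.7, 68.8, 46 and 63.2 CPM in LBR KO, 60.8, 75.1, 71.8 and 72.5 CPM in TKO and 162, 163, 168 and 172 CPM in QKO. Each single knockout lay below every WT library and QKO above every one, with an interaction of 2.19 ± 0.43 (adjusted p = 0.000158). *Sox1*, a neural transcription factor, was also unsorted, at 17.8 to 36.4 CPM in WT (median 23.6), 43 to 54.8 CPM in LBR KO, 41.5 to 52.9 CPM in TKO and 14.4 to 18.2 CPM in QKO. Both single knockouts lay above every WT library. The range of QKO reached below that of WT and overlapped only its low end (interaction -2.475 ± 0.241, adjusted p = 1.96e-10). Of 15 formative and primed genes, *Otx2* and *Fgf15* were the 2 called, both higher (5.09% of all genes). Of 15 naive genes, *Dppa3* was called higher and *Nr5a2*, *Nr0b1* and *Nanog* lower (2.96% of all genes). Without LBR KO replicate 2, 1 naive gene was called lower. *Nanog* was at -1.08 with all libraries and -0.65 with WT replicates 1 to 4.

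The list with the largest median interaction, 3.21, was that of 2-cell-like cells, a rare state that resembles the cleavage embryo. All 14 tested genes were called lower in LBR KO, 11 in TKO and 14 in QKO, against 2.63%, 1.48% and 8.16% of all genes. The interaction was called higher for 12 of them, against 5.09% of all genes. Their summed level was 19.3 to 30.4 CPM in WT, 1.43 to 3.02 CPM in LBR KO, 5.96 to 9.39 CPM in TKO and 4.58 to 5.86 CPM in QKO, so QKO lay between the single knockouts. *Zscan4d* was at 2.43 to 4.68 CPM in WT (median 3.63), 0.159, 0.23, 0.23 and 0.511 CPM in LBR KO, 0.53, 0.533, 0.497 and 1.06 CPM in TKO and 0.288, 0.32, 0.393 and 0.897 CPM in QKO. Additive effects would have given 0.0532 CPM, which is 1.64 reads. Of the 217 buffering genes with a higher interaction, 80 had an additive value under 3 reads in a QKO library, and for these the departure from the sum cannot be told apart from the floor of the counts. The *Zscan4* and *Usp17l* genes are near-identical copies, so their counts of unique reads are uncertain.

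The 102 buffering genes with a lower interaction had a median log2 ratio of 1.38 in LBR KO, 0.56 in TKO and -0.13 in QKO, and QKO was not called against WT for 80 of them. By the class rule, at least 1 single knockout is called higher for each and QKO lies below the sum. *Rhox6*, a homeobox gene of a cluster on the X chromosome, was at 0.881 to 2.09 CPM in WT (median 1.38), 11.6, 9.55, 6.77 and 11.3 CPM in LBR KO, 0.888 to 1.59 CPM in TKO and 0.972, 1.66, 0.917 and 0.869 CPM in QKO (interaction -2.77 ± 0.37, adjusted p = 1.76e-07). Its neighbours *Rhox5* and *Rhox9* were of the same class. *Mymx*, a fusogen of myoblasts, was at 1.83 to 2.67 CPM in WT (median 2.42), 7.65 to 14 CPM in LBR KO and 1.43 to 2.13 CPM in QKO, and *Mt3*, a metallothionein, had an interaction of -2.12 ± 0.31. *Sfmbt2*, an imprinted Polycomb gene, was at 32.2 to 43.1 CPM in WT (median 34.5), 146 to 166 CPM in LBR KO, 46.2 to 61.2 CPM in TKO and 74.5 to 79.2 CPM in QKO, an intermediate value (-1.62 ± 0.09). *Halr1*, a noncoding RNA, rose in both single knockouts (log2 ratios 2.12 and 1.02) and read 2.11 to 2.91 CPM in QKO against 1.58 to 6.05 CPM in WT (median 3.24). The Y RNA genes *Rny3* and *Rny1* were uneven within LBR KO, at 20.9, 10.2, 1.94 and 3.05 CPM and at 14.3, 7.87, 2.36 and 4.88 CPM.

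*Halr1*, *Rny1* and *Rny3* lie on chromosome 6, where the interaction was shifted as a whole. The median LBR KO ratio of the 1167 tested genes of chromosome 6 was 0.37 (log2) and the median interaction -0.35, whereas on the other autosomes and X the median interaction ran from -0.07 to 0.11. Over the same genes each LBR KO library lay 0.22 to 0.28 above the WT mean, with 0.5 CPM added before the log, and each TKO and QKO library 0.05 to 0.15 below it. Interactions were called lower for 98 genes of chromosome 6 (8.4%) and higher for 24, against 2.67% lower elsewhere, and 20 of the 102 buffering genes with a lower interaction and 49 of the 404 synergy genes with a lower interaction lie there. *Hoxa3*, *Gata2*, *Tead4*, *Nanog*, *Asz1*, *Wnt5b* and *Frmd4b* are among them. The part of chromosome 6 copy number in these values was not tested. On chromosome 8 the median log2 ratios were 0.08 in LBR KO, -0.01 in TKO and 0.04 in QKO.

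**Figure D3:**
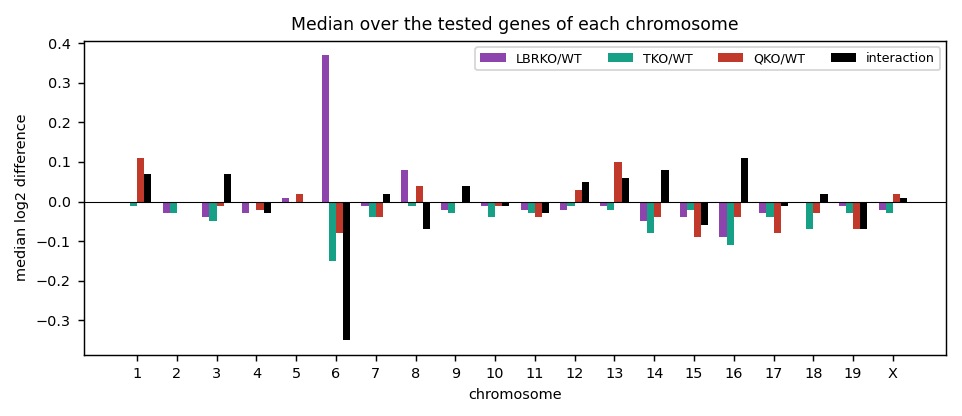
Median log2 ratio to WT of LBR KO, TKO and QKO, and median interaction, over the tested genes of each autosome and X. Chromosome 6 stands apart with a median of 0.37 in LBR KO and -0.35 for the interaction.

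Single effects of opposite sign met in 42 genes, and 15 of these had a called interaction. *Zfy1*, a Y-linked zinc finger gene, was at 0.226 to 0.569 CPM in WT (median 0.458), 0.0209 to 0.114 CPM in LBR KO, 1.06 to 1.54 CPM in TKO and 11.4, 8.83, 8.28 and 10.4 CPM in QKO (interaction 5.72 ± 0.40, adjusted p = 2.88e-14). *Efhc2*, an X-linked EF-hand gene, followed the same order at higher levels, with 5.65 to 10.8 CPM in WT (median 7.22), 2.22 to 3.88 CPM in LBR KO, 20.2 to 23.8 CPM in TKO and 51.9 to 55.9 CPM in QKO. In both, QKO moved with the lamin effect and past it. *Ngfr*, the p75 neurotrophin receptor, and *Galnt6*, which starts O-glycosylation, moved with the LBR effect instead. *Galnt6* was at 10.9 to 17.8 CPM in WT (median 14.2), 42.3 to 53.6 CPM in LBR KO, 5.69 to 7.35 CPM in TKO and 47.1 to 58.8 CPM in QKO (interaction 1.29 ± 0.16). *Krt42* (-1.995 ± 0.301) and *Frmd4b* (-1.03 ± 0.18) rose in LBR KO, fell in TKO and stayed near TKO in QKO. *Frmd4b* lay at the threshold, and was -0.93 without LBR KO replicate 3. Most Y-linked genes on the list had a higher interaction. Of 6 tested, 4 were called higher (*Zfy1*, *Kdm5d* at 3.73, *Ddx3y* at 1.30 and *Eif2s3y* at 1.06), *Usp9y* was called lower (-1.81) and *Uty* was not called (0.23, adjusted p = 0.159). Over all 14 tested genes of the Y chromosome 5 were called higher (35.7%) and 1 lower (7.14%), and the median interaction was 0.93. For both counts the shares of all genes were 5.09% higher and 2.96% lower. The summed level of the list was 125 to 171 CPM in WT, 136 to 141 CPM in LBR KO, 117 to 138 CPM in TKO and 226 to 254 CPM in QKO. The part of Y chromosome loss in these values was not tested.

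Called interactions of cholesterol synthesis genes had 1 direction. Sterol depletion activates SREBP2, which raises the genes of the pathway together. The authors reported that LBR loss left cholesterol levels unaffected, in an assay of mES cells. The part of sterol levels in the values below was not tested. Of 20 tested genes, 7 had a lower interaction call (2.96% of all genes) and 15 had a lower interaction at an adjusted p under 0.05 with no fold threshold (13.6% of all genes), and no member was higher by either rule. The list's medians were 0.52 in LBR KO, -0.14 in TKO, -0.52 in QKO and -0.88 for the interaction, so LBR KO lay above WT and QKO below it, although no member passed 2-fold in LBR KO. The summed level was 2340 to 3600 CPM in WT, 3980 to 4830 CPM in LBR KO, 2440 to 2720 CPM in TKO and 2180 to 2370 CPM in QKO. The 7 genes were *Acat2*, *Mvk*, *Pmvk* and *Mvd* of the early pathway, *Lss*, which closes the sterol ring, *Tm7sf2*, the second sterol C14-reductase of the cell beside LBR, and *Msmo1*, a sterol methyl oxidase.

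*Mvd*, mevalonate diphosphate decarboxylase, was at 75 to 140 CPM in WT (median 103), 212, 211, 159 and 192 CPM in LBR KO, 91.8, 90.5, 90.7 and 98.2 CPM in TKO and 57.5, 49.7, 63.2 and 54.9 CPM in QKO. All LBR KO libraries were above and all QKO libraries below every WT library, and the interaction was -1.59 ± 0.17 (adjusted p = 2.32e-09). *Tm7sf2* was at 24.5 to 44.2 CPM in WT (median 30.1), 39.9, 36, 28.2 and 39.1 CPM in LBR KO, 20.2, 20, 17.2 and 18.6 CPM in TKO and 6.55, 7.87, 9.4 and 8.69 CPM in QKO. LBR KO overlapped WT, TKO lay below it and QKO below TKO (interaction -1.39 ± 0.19, adjusted p = 3.75e-07). *Pmvk* was at 36.6 to 65 CPM in WT (median 51.4) and 15.4 to 25 CPM in QKO, with an interaction of -1.86 ± 0.20. The 8 WT libraries were not alike here. With WT replicates 1 to 4 alone 12 of the 20 synthesis genes were called lower, with replicates 5 to 8 alone 4. *Mvd*, *Pmvk* and *Tm7sf2* stayed past the threshold with either set, at -1.98, -2.10 and -1.71 and at -1.29, -1.66 and -1.13.

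**Figure D4:**
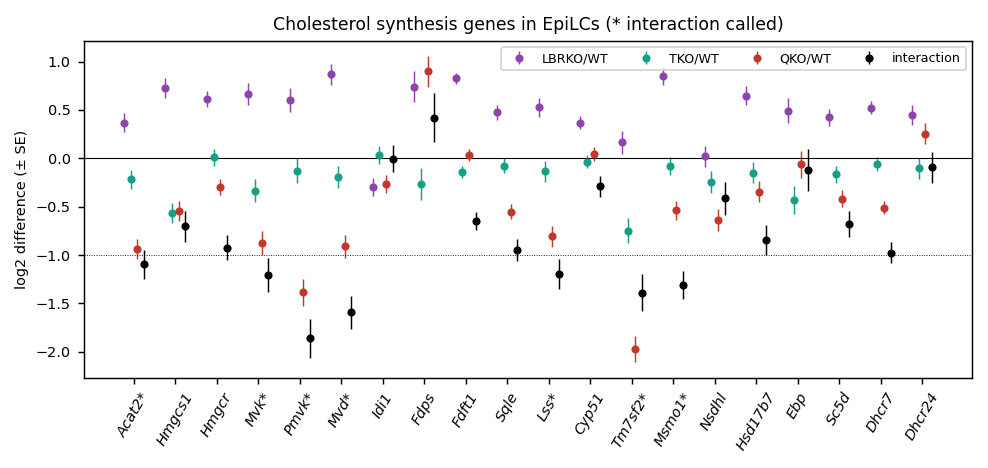
Log2 ratios to WT and the interaction (± SE) of 20 cholesterol synthesis genes in pathway order, with a dotted line at -1 and asterisks on the 7 genes whose interaction was called. The LBR KO points lie mostly above 0 and the QKO points mostly below, so that the interactions, with a list median of -0.88, lie lower than either.

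The promoters of 3 of these genes are shown because each has a called lower interaction and holds a short element found in most promoters of the list. Each run is the 250 bases before the start of transcription, from RefSeq on GRCm38.p6, 5′ to 3′ on the strand of the gene, and capitals mark CCAAT or its reverse complement ATTGG, the element that the factor NF-Y binds beside SREBP sites. They lie at chr8:122443423-122443672 (minus strand, *Mvd*), chr19:6067851-6068100 (minus strand, *Tm7sf2*) and chr5:114444019-114444268 (plus strand, *Mvk*).
Mvd: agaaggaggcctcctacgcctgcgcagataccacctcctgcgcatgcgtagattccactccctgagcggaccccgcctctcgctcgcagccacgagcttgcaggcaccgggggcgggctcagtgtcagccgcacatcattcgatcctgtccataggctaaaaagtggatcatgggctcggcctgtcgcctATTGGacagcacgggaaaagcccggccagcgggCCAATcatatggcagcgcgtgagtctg
Tm7sf2: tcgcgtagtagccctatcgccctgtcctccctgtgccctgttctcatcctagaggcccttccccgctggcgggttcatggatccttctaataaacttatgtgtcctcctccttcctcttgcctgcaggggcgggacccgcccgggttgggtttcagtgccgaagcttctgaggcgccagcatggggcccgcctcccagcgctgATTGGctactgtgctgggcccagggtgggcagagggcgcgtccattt
Mvk: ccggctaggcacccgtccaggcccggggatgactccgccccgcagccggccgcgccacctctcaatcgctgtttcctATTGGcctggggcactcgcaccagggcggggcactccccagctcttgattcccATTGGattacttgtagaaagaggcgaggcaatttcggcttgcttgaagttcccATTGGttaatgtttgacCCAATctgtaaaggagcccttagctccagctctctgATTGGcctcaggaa

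Of the 20 listed genes, 15 had at least 1 promoter in the table, 18 promoters in all. CCAAT, on either strand, was in 14 of the 18 (77.8%), not in that of *Acat2*, against 33.8% of all 32851 promoters over the same 250 bases. The SREBP element TCACNCCAC was in 1 of the 18, against 1.05% of all promoters. These are matches of letters and were not measured as binding.

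For transposable elements (TEs), reads that align to many copies were counted by family. The single knockouts changed few of the 1142 tested families. In LBR KO 7 were higher and 3 lower (0.613% and 0.263%), and in TKO 8 were higher and 1 lower (0.701% and 0.0876%), whereas 300 were higher in QKO (26.3%). The interaction was called higher for 45 families (3.94%) and lower for 2 (0.175%). The shift was broad rather than particular to some families, since the median interaction over all families was 0.53, and that of DNA transposons, which no longer move, was 0.45. TEs took 7.12% to 10.2% of counts in WT, 9.46% to 9.78% in TKO and 13.5% to 14.3% in QKO.

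Among the LBR KO libraries the TE shares were 8.01%, 7.84%, 12.7% and 9.68%, and replicate 3 stood apart. The count of families called higher rested on it. Without LBR KO replicate 3, 192 families were called higher and the median interaction was 0.80. Without replicate 1 or 2 there were 22 or 23, with medians of 0.40 and 0.43, and without WT replicate 7 there were 28. Interactions of single families are therefore given with and without replicate 3.

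Several of the families furthest from additivity were endogenous retroviruses of the ERVK group. ERVB5_1-I_MM was at 1.02 to 1.7 CPM in WT (median 1.14), 0.976, 1.22, 1.08 and 1.56 CPM in LBR KO, 1.02, 1.68, 0.995 and 1.46 CPM in TKO and 7.68, 7.21, 7.93 and 8.94 CPM in QKO. It was called in QKO and in neither single knockout (interaction 2.62 ± 0.26, adjusted p = 3.65e-09, and 2.57 without LBR KO replicate 3). IAP1-MM_I, an internal part of intracisternal A particles, was at 3.38 to 5.06 CPM in WT (median 3.83), 4.67, 4.17, 7.83 and 4.73 CPM in LBR KO, 5.25 to 6.41 CPM in TKO and 27 to 30.4 CPM in QKO (1.89 ± 0.19, and 2.13 without that library). MMERVK10D3_I was at 13.9 to 23.2 CPM in WT (median 16.3) and 84.4 to 92.1 CPM in QKO (1.501 ± 0.204, and 1.70 without it).

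MERVL-int, the internal part of the retrovirus of 2-cell-like cells, was also of the buffering class. It was at 137 to 230 CPM in WT (median 192), 65.4, 65.2, 124 and 92.1 CPM in LBR KO, 91 to 103 CPM in TKO and 140, 156, 141 and 149 CPM in QKO (1.68 ± 0.25, adjusted p = 6.27e-06, and 1.90 without LBR KO replicate 3). Its LTR, MT2_Mm, had an interaction of 1.25 ± 0.18, and 1.42 without that library. The ERV1 families MuRRS4-int and RLTR1B-int fell in LBR KO (log2 ratios -1.43 and -1.005) and were at 29.2 to 46.4 CPM and 79.8 to 86.5 CPM in QKO, above their WT ranges of 18.8 to 27.2 CPM and 36.1 to 52.1 CPM. Their interactions were 1.94 ± 0.24 and 1.68 ± 0.21, and 2.09 and 1.83 without LBR KO replicate 3.

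Of 8 young LINE-1 families tested, 7 were higher in QKO and 3 in TKO, against 26.3% and 0.701% of all families. With all libraries edgeR and DESeq2 called the interaction of none, 6 passed an adjusted p under 0.05 with no fold threshold (17.7% of all families higher), and 7 had an unadjusted p under 0.05. L1MdA_I was at 308 to 453 CPM in WT (median 375), 498, 528, 709 and 740 CPM in LBR KO, 1480, 1240, 1250 and 1250 CPM in TKO and 3520, 2700, 2670 and 2900 CPM in QKO. Both single effects pointed up (log2 ratios 0.73 and 1.80) and QKO was at 2.98, an interaction of 0.45 ± 0.23 (adjusted p = 0.128, and 0.52 without LBR KO replicate 3), the lowest of the list. The highest were L1MdA_II at 0.94 ± 0.21 (adjusted p = 0.00219) and L1MdTf_I at 0.93 ± 0.19 (adjusted p = 0.00104), which passed 2-fold without that library, at 1.15 and 1.06. With WT replicates 1 to 4 alone 1 family was called. The list's median interaction was 0.68, against 0.53 over all families.

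**Figure D5:**
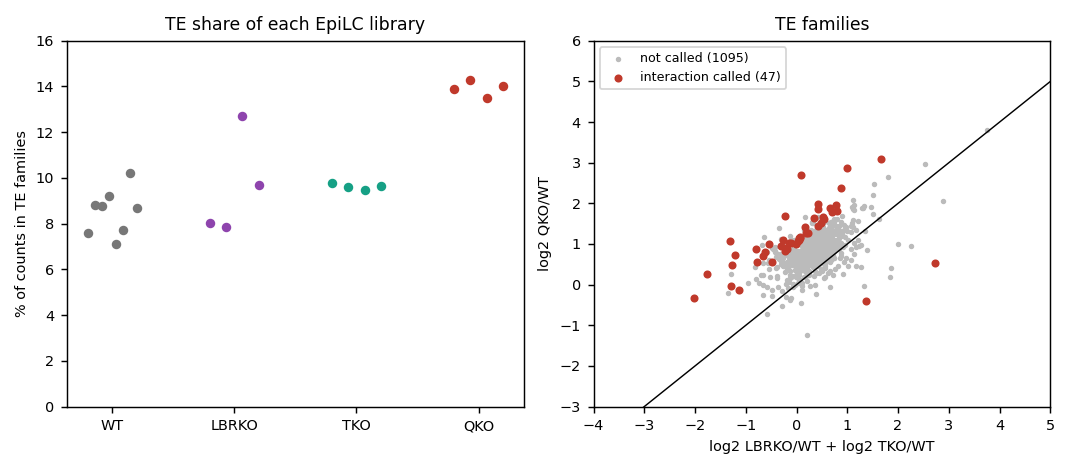
Left, the percentage of counts that fell in TE families in each EpiLC library, where LBR KO replicate 3 reached 12.7% and the QKO libraries 13.5% to 14.3%. Right, the log2 ratio of QKO to WT against the sum of the single effects for each TE family, with the line of additivity. The 47 families with a called interaction are in red, 45 of them above the line, and most other families also lie above it.

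The same interaction in mES cells, the state from which EpiLCs were made, was called higher for 959 genes (4.1%) and lower for 796 (3.4%). Of the 1068 synergy genes in EpiLCs, 308 (28.8%) had a call in the same direction in mES cells and 15 in the opposite one, and of the 319 buffering genes 95 (29.8%) and 14. The difference between stages was itself called for 560 genes higher and 408 lower in EpiLCs (2.39% and 1.74%), among them 188 synergy and 67 buffering genes. *Wnt5a* (difference 4.59 ± 1.16, adjusted p = 0.0072), *Gata6* (2.14 ± 0.70, adjusted p = 0.0474) and *Mvd* (-1.20, adjusted p = 0.000784) differed between stages, and *Tm7sf2* was not called (-0.43, adjusted p = 0.385). *Eomes* had a negative interaction in mES cells (-2.19 ± 0.16) and a positive one in EpiLCs. The largest differences by the naming rule were *Kcnh8*, *Tal1*, *Trp53i11* and *Tox3*, higher in EpiLCs, and *Lefty2*, *Lefty1*, *Fermt1* and *Kctd12b*, lower. *Lefty1* and *Lefty2*, secreted inhibitors of NODAL, had log2 ratios of -8.16 and -7.22 in LBR KO mES cells and of -0.62 and -0.27 in LBR KO EpiLCs, and no called interaction in EpiLCs. For TE families the mES interaction was called higher for 28 (2.45%) and lower for none, and the difference between stages for 1 higher (0.0876%) and 2 lower (0.175%).

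Some genes of 1 class lay side by side on the chromosome. A direct neighbour of the same class and direction was found for 18.7% of synergy genes with a higher interaction, against 5.5% of all genes next to such a gene, and for 16.8% against 3.38% of those with a lower one. For buffering genes the shares were 14.4% against 1.79% and 14.7% against 0.864%. The longest run was 5 *Zscan4* genes and pseudogenes on chromosome 7. *Peg3* and *Usp29* on chromosome 7, *Slc25a23*, *Crb3*, *Dennd1c* and *Tubb4a* on chromosome 17, and *Rhox5*, *Rhox6* and *Rhox9* on the X chromosome were other runs. Overlapping and near-identical genes can share reads, and the strand setting of the counting is not given in the sources used here.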

How the data were processed

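Total RNA of 40 libraries was sequenced, of which the 20 EpiLC libraries are described here and the mES libraries entered the same fit. The values are counts as deposited. The authors trimmed reads with cutadapt 2.5, aligned them to GRCm39 with STAR 2.7.10a, handled alignments with SAMtools 1.10 and counted unique reads per GENCODE gene with featureCounts 1.6.4. For a second table of counts, reads with up to 100 alignments were assigned by the authors to genes and TE families with TEcount. A table of unique counts per TE copy was not used here. Groups came from the sample labels. The members and gene lists were chosen with earlier results of these data known.

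Counts were scaled by TMM, filtered with filterByExpr over 8 groups and fitted with edgeR 4.0.16 (quasi-likelihood test, R 4.3.3) over all 40 libraries, separately for genes and for the table with TE families, with Benjamini-Hochberg adjustment over all genes or all families. Every adjusted p in the text is from these fits unless another tool is named, and every ± is a standard error computed as the estimate over the square root of F. The difference between stages was a contrast of the same fit. CPM are per TMM-scaled library. The additive value is the WT level times both single ratios, and was set against a floor of 3 reads. Sets of WT libraries, scalings, filters, the test and left-out libraries were varied, and a split of WT by depth, a fit of replicates 1 to 4 without the block and TE fold thresholds were added after seeing the data. The fits were tested on simulated data. Replicate pairs of a group differed by more than counting noise, so none was counted as a duplicate.

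Genes named in the text are the 4 markers, the 4 targeted genes, called members of the lists and, per class and direction, the 6 genes of largest interaction with a mean of at least 5 CPM in 1 group and a call with either WT set, unnamed clones left out. Some members that the rule names are not reported here. TE families followed the same rule at 1 CPM with 5 per class, and stage differences with 4 per direction. Stage markers, genes at the threshold, neighbouring genes, *Uty* and the families MT2_Mm and L1MdA_I were chosen after their values were seen or from the lists. Promoters came from RefSeq on GRCm38.p6, another build than that of the counts, and were matched by symbol.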

Additional observations from a re-analysis of the deposited data

Results flagged for a closer look

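In 15 of 180 sets of 1 gene in 1 group, over 45 named genes, a single library stood apart from the others of its group by Dixon's criterion, which chance alone gives in about 1 of 20 sets. Among TKO libraries, replicate 1 was apart for *Efhc2* (20.2 CPM, others 23.6 to 23.8), *Nrcam* (11 CPM, others 12.4 to 12.6) and *Mt3* (22.1 CPM, others 9.91 to 11.5). Replicate 3 was apart for *Trp53i11* (25.2 CPM, others 20.3 to 21.1), *Abca9* (2.18 CPM, others 1.81 to 1.85) and *Cd109* (4.09 CPM, others 2.3 to 2.38), and replicate 4 for *Mvd* (98.2 CPM, others 90.5 to 91.8). Among QKO libraries, replicate 1 was apart for *Rcsd1* (7.38 CPM, others 8.94 to 9.05) and *Tox3* (6.91 CPM, others 4.38 to 4.76), and replicate 2 for *Rhox6* (1.66 CPM, others 0.869 to 0.972). LBR KO replicate 3 was apart for *Lmna* (13.5 CPM, others 18.4 to 19.2) and *Kctd12b* (9.89 CPM, others 5.56 to 5.72). WT replicate 2 was apart for *Ngfr* (2.75 CPM, others 1.33 to 1.77) and *Ap3b2* (5.98 CPM, others 4.18 to 4.9), and WT replicate 5 for *Rny1* (0.544 CPM, others 2.3 to 3.56). No outlying library changed the direction of the interaction of these genes when it was left out.

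For 23 of the same 45 genes, the interaction itself differed between EpiLCs and mES cells in edgeR's test of the difference. It was higher in EpiLCs for *Kcnh8* (7.19), *Tal1* (5.45), *Wnt5a* (4.59), *Trp53i11* (4.36), *Tox3* (4.16), *Srrm4* (3.78), *Nrcam* (3.62), *Rcsd1* (3.02), *Cd109* (2.59), *Slfnlnc* (2.31), *Gata6* (2.14), *Ccdc187* (1.86), *Ngfr* (1.59) and *Galnt6* (1.04), all as log2 differences. It was lower in EpiLCs for *Lefty2* (-6.51), *Lefty1* (-6.28), *Fermt1* (-5.72), *Kctd12b* (-5.11), *Halr1* (-4.24), *Mmd* (-2.17), *Epha7* (-1.92), *Macroh2a2* (-1.51) and *Mvd* (-1.20). *Wnt5a*, *Kcnh8* and *Fermt1* had the widest errors of the difference among these, at 1.16, 1.31 and 1.34.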

How the results depend on the processing

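No called gene changed the sign of its call under any alternative. With WT replicates 1 to 4 alone 82.7% of the 1883 called genes were called again, with WT replicates 5 to 8 alone 83.7%, with WT split by depth 86.4% and with DESeq2 98%. On the linear CPM scale 1876 had the same sign. Counts of calls depended on the fold threshold. Without one, 2493 genes were higher and 3187 lower and 202 TE families higher, and with glmTreat against a log2 interaction of 1, 206 and 87 genes and 3 TE families higher and 0 lower. TE families called lower were 1 in place of 2 with either WT set, with WT split by depth and with replicates 1 to 4. Buffering genes with a lower interaction were 174 with WT replicates 5 to 8.

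The rule set for pairing by replicate number, that every same-number pair exceed 0.1, was not met. This strict rule cannot decide whether some samples were paired. Correlations over 0.1 made up a larger share of same-number pairs than of different-number ones, with medians of 0.04 and -0.01. Of 24 same-number correlations (-0.06 to 0.32) 8 were over 0.1, and of 72 different-number ones (-0.33 to 0.18) 6 were. The fit with the replicate block called 1916 genes and the same libraries without it 1817, with 9 opposed genes without it. The deeper WT libraries, which were close in depth to LBR KO, were in neither of these fits.

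Leaving out each library in turn gave 1033 to 1620 genes higher and 611 to 754 lower, 579 to 865 and 361 to 449 synergy genes, 195 to 262 and 79 to 139 buffering genes and 10 to 20 opposed genes. TE families ranged from 22 to 192 higher, 15 to 112 of synergy, and 0 to 2 lower, with both ends of the higher range set by LBR KO libraries. *Lbr* reversed to -0.07 with WT replicates 1 to 4, -0.01 with the block, -0.04 without it and between -0.08 and 0.25 over left-out libraries. ERVB4_2-LTR_MM, which was not called, ranged from -1.30 to 0.56. The cause was not tested. Depth limits genes near the floor, where additive values of a few reads set the size of an interaction.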

Other observations

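Genes that restrain retrotransposons in germ cells were called in both directions. For the lists of this paragraph the shares of all genes are 5.09% higher and 2.96% lower. Of 14 tested, *Tex19.1*, which acts in the placenta and germ line, had an interaction of 1.74 and the piRNA pathway helicase *Tdrd9* one of 1.29, while *Tdrd5* had -2.05 and *Asz1* -1.11, the last on chromosome 6. Of 25 antiviral genes, *Ifit1* and the membrane protein gene *Ifitm3* were called higher (2.58 and 1.30) and *Oasl1* and *Bst2* lower (-1.62 and -1.04). *Tet2*, which oxidises methylcytosine, rose in LBR KO (log2 ratio 1.30) and was at 0.24 in QKO, an interaction of -1.44. Among 18 genes of NODAL, TGFb and BMP signalling, the activin subunit gene *Inhbb* had single effects of opposite sign (1.74 and -1.25) and an interaction of -2.47, and *Fst* and *Id1* were called higher. Of 14 trophectoderm genes, the keratin gene *Krt19* was called higher, and *Gata2* and *Tead4*, both on chromosome 6, lower. *Perp* was the 1 called gene of 19 p53 targets (1.58), a share near that of all genes. Without the fold threshold, 6 of these 19 had a higher interaction at an adjusted p under 0.05 (10.7% of all genes) and 1 a lower one (13.6%). Against WT, 6 p53 targets were called higher in QKO (13% of all genes). The summed level of the list was 3570 to 3890 CPM in QKO and 2160 to 2510 CPM in WT.

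Some lists responded in QKO without a called interaction. Of 15 integrated stress response genes, which ATF4 induces when translation initiation is limited, 11 were lower in QKO (8.16% of all genes) and 3 in LBR KO (2.63%). Their summed level was 3310 to 4290 CPM in WT, 2670 to 3290 CPM in LBR KO, 2660 to 2860 CPM in TKO and 1630 to 1950 CPM in QKO. Neither edgeR nor DESeq2 called an interaction in this list, where the lowest was -0.96 and 9 genes had an unadjusted p under 0.05. With no fold threshold, 7 had a lower interaction at an adjusted p under 0.05 (13.6% of all genes) and 0 a higher one. Of 11 mitochondrially encoded genes, 7 were higher in QKO (13% of all genes) and 0 had a called interaction by either tool, with 6 at an unadjusted p under 0.05. With no fold threshold, 4 had a higher interaction at an adjusted p under 0.05 (10.7% of all genes) and 0 a lower one. No interaction was called by either tool among 22 genes of H3K9 methylation and HP1 (9 at an unadjusted p under 0.05), 16 genes of the nuclear envelope (9) or 7 genes of core pluripotency (3). At an adjusted p under 0.05 with no fold threshold, 1, 3 and 0 genes of these lists were higher and 2, 3 and 3 lower. Of 7 tested fibroblast markers none was called by either tool (1 at an unadjusted p under 0.05), and their summed level was 23.6 to 31.6 CPM in WT, 15 to 18.8 CPM in LBR KO, 25.3 to 27 CPM in TKO and 12.7 to 13.9 CPM in QKO.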
